A study of Mus musculus with 6 samples.

Results

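Wnt ligands and the secreted proteins that restrain them were examined in basal epithelial cells of the mouse prostate. The set comprised 10 genes chosen by name, which were 6 ligand genes (Wnt4, Wnt5a, Wnt7a, Wnt7b, Wnt9a and Wnt10a) and 4 genes for secreted inhibitors (Sfrp1, Sfrp5, Dkk3 and Wif1). They are 10 of the 25264 gene symbols to which the deposited transcripts could be matched, and each of the 10 had at least 1 matched transcript. RNA sequencing compared 3 libraries of basal cells from the proximal ducts, which lie nearest the urethra, with 3 libraries of basal cells from the distal ducts, toward the gland tips. Every library came from prostates of C57BL/6 mice aged 8 to 12 weeks, with no transgene or treatment named. The labels state sorting with fluorescent antibodies but not which, give a culture protocol that concerns stromal cells, and do not say whether the replicates were separate animals or pools, and p-values reflect only how far these libraries vary, a spread that may be technical.

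Wnt proteins are lipid-modified ligands that act over short distances on Frizzled receptors with LRP5 or LRP6, and in the canonical branch they stabilise beta-catenin, which turns on target genes through TCF and LEF factors. Secreted Frizzled-related proteins (SFRPs) and WIF1 bind Wnt proteins outside the cell, and the pathway has roles in the budding and branching of the prostate and in its progenitor cells. The study that produced these libraries proposed that Wnt ligands from region-restricted stroma act on epithelial progenitors of the proximal ducts. Stromal libraries were not analysed here, so the values below describe only the RNA of the basal fractions.

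The basal keratins were abundant in all 6 libraries. Krt5 had 583 to 674 FPKM in proximal and 340 to 437 FPKM in distal libraries, and Krt14 had 2121 to 2276 FPKM in proximal and 2283 to 3397 FPKM in distal libraries. Of 10 basal markers, 4 were higher in proximal libraries and none was lower. Krt5 was among those higher (adjusted p = 0.0204 in limma). Trp63, also on that list, had 27.8 to 39.1 FPKM in proximal and 34.6 to 74.7 FPKM in distal libraries. It did not pass (adjusted p = 0.170 in limma). The basal list summed to 8733 to 8975 FPKM in proximal and 7572 to 9255 FPKM in distal libraries. FPKM, the deposited unit, scales fragments to the length of the transcript and to the sequenced total, so it can be compared between genes of different length. The widths of the deposited intervals implied 23200000 to 28400000 fragments in the proximal and 22900000 to 29400000 in the distal libraries. Markers of other cells were present as well, some of them at or above the level of Krt5. Of the luminal markers, Krt18 had 1218 to 1373 FPKM in proximal and 1076 to 1628 FPKM in distal libraries, and Krt8 had 519 to 661 FPKM in proximal and 474 to 643 FPKM in distal libraries. The 10 luminal markers summed to 3536 to 3663 FPKM in proximal and 2509 to 3362 FPKM in distal libraries, with 2 higher and 2 lower. Of 8 markers of proximal luminal cells, 6 were higher and none was lower, and they summed to 1817 to 2076 FPKM in proximal and 957 to 1024 FPKM in distal libraries. Of the 9 tested fibroblast markers 6 were higher in proximal libraries and none was lower, and the list without decorin (Dcn, 641 to 710 FPKM in proximal and 737 to 789 FPKM in distal libraries) summed to 68.7 to 76.4 FPKM in proximal and 30.6 to 41.5 FPKM in distal libraries. Including Dcn, the 12 fibroblast markers summed to 709 to 780 FPKM in proximal and 779 to 820 FPKM in distal libraries. The 8 endothelial markers summed to 18.3 to 26.3 FPKM in proximal and 2.38 to 11.9 FPKM in distal libraries, with 4 of 6 tested higher. The 7 nerve and glia markers summed to 45.8 to 63.6 FPKM in proximal and 36.7 to 43.9 FPKM in distal libraries, with 3 of 5 tested higher. Smooth muscle markers summed to 269 to 276 FPKM in proximal and 243 to 301 FPKM in distal libraries, most of it Smtn, and none of 7 tested passed in limma (1 at an unadjusted p under 0.05). No marker of the 6 lists of other cells above was at 0 in all 6 libraries. Thy1, Lmod1, Vwf, Tek and S100b stayed under 1 FPKM in each. The 6 urothelial markers summed to 18.5 to 32.5 FPKM in proximal and 16.8 to 19.5 FPKM in distal libraries. Of 3 tested, 1 was higher and 1 lower, and 1 untested marker was at 0 in all 6 libraries. The 8 immune markers summed to 6.79 to 11.8 FPKM in proximal and 9.09 to 13.3 FPKM in distal libraries. None of 2 tested passed in limma.

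Of the 10 genes, 8 averaged 1 FPKM or more across all 6 libraries and entered the test (limma on log2(FPKM + 1), Benjamini-Hochberg adjusted p under 0.05 over all 10255 genes tested). Of these 8, Wnt7b, Wnt10a, Sfrp1, Sfrp5 and Dkk3 were higher in proximal cells, none was lower, and Wnt4, Wnt9a and Wif1 did not pass. Sfrp1 and Sfrp5 averaged 0.979 and 0.377 FPKM in distal libraries, so they reached the filter only through their proximal values. With no filter their adjusted p was 0.0340 and 0.0417 in limma. Over all genes tested, 7.02% were called, 4.52% higher and 2.50% lower. In 6 of the 10 genes, which are the 5 called genes and Wnt5a, every proximal library lay above every distal library, as did 15.8% of all genes tested, and the groups lay apart in either direction for 28.8%. Log2 fold changes are proximal over distal and are computed on log2(FPKM + 1). Because this makes the change of low genes look smaller, the ratio of mean FPKM is given beside them. In a bulk fraction, fewer cells that express a gene and less of its RNA per cell cannot be told apart.

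**Figure D1:**
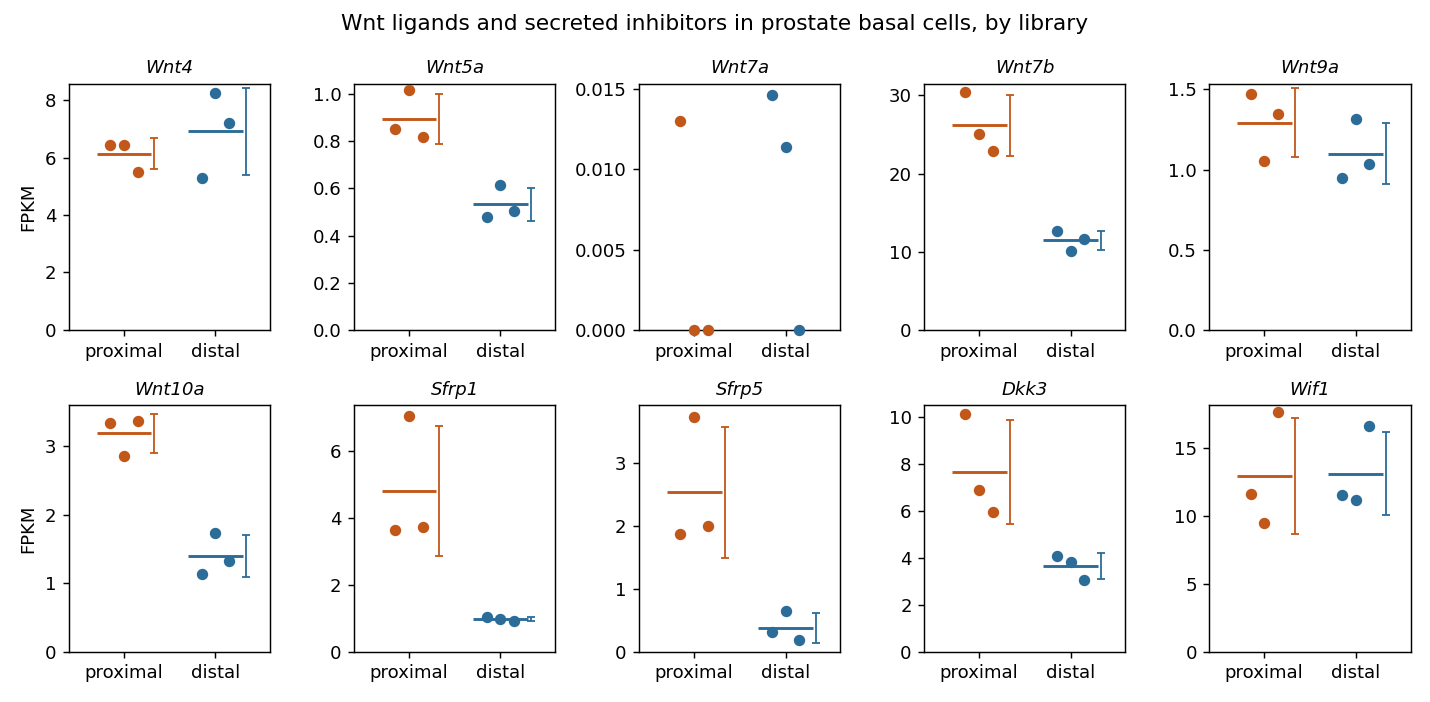
FPKM of the 10 genes in each library, with proximal libraries on the left (orange) and distal libraries on the right (blue) of each panel, each on its own linear axis from 0. Points are libraries in replicate order, horizontal lines are group means and bars are SD (n = 3), left out for Wnt7a, which was listed at 0 in some libraries. Wnt7b, Wnt10a, Wnt5a, Sfrp1, Sfrp5 and Dkk3 show no overlap between the groups, whereas Wnt4, Wnt7a, Wnt9a and Wif1 do.

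Wnt7b, a ligand that signals through beta-catenin and is known from epithelia such as those of the lung and kidney, was the most abundant of the 6 ligands in every library. It had 30.5, 25.1 and 22.9 FPKM in proximal libraries 1 to 3, against 12.6, 10.1 and 11.6 FPKM in distal libraries 1 to 3. The lowest proximal library thus stood well above the highest distal one. The means were 26.2 ± 3.91 FPKM in the proximal group and 11.5 ± 1.25 FPKM in the distal group (SD, n = 3), a 2.28-fold ratio. The log2 fold change was 1.12 ± 0.14 (SE, adjusted p = 0.00362 in limma), and its adjusted p was between 0.00227 and 0.0246 under 18 alternative settings. The gene lies on chromosome 15 (85535437 to 85582473, minus strand, mm10), and the 1 other deposited transcript that overlaps it was listed at 0 throughout.

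Wnt7b is represented by 4 deposited transcripts that differ in splicing or first exon, and 2 of them, which share the first exon that starts at position 85581821, held all Wnt7b FPKM in 5 libraries and 84.8% in distal replicate 2. Their spliced lengths, 3373 and 3369 bases, equal those built from annotated exons with exon 2 ending at 85558903 or 85558907, so that they differ by 4 bases at the end of exon 2. As 4 is not a multiple of 3, the 2 forms cannot keep the same reading frame on both sides of this difference. Their proteins were not examined. The sequence across the joint of exons 2 and 3 is shown for the annotated transcripts (GENCODE M21) that use each end. This joint is all that separates the 2 forms, and the 4 additional bases are in capitals.
Wnt7b-202: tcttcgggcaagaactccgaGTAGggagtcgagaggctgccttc
Wnt7b-201: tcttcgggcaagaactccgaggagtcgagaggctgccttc
The form with the 4 bases had 21.9, 20.2 and 19.6 FPKM in proximal libraries, against 9.33, 5.82 and 8.29 FPKM in distal libraries. The form without them had 8.64, 4.94 and 3.28 FPKM in proximal libraries, against 3.29, 2.78 and 3.33 FPKM in distal libraries. Its share of Wnt7b FPKM was 28.3%, 19.7% and 14.3% in proximal libraries, against 26.1%, 27.4% and 28.6% in distal libraries. The longer form was higher in proximal libraries without overlap, while the ranges of the shorter form overlapped. That overlap came from proximal replicate 3 (3.28 FPKM), and the other proximal values of the shorter form lay above all distal ones. The split between such similar forms is the estimate of Cufflinks, the program that made the values, and few reads can tell them apart.

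**Figure D2:**
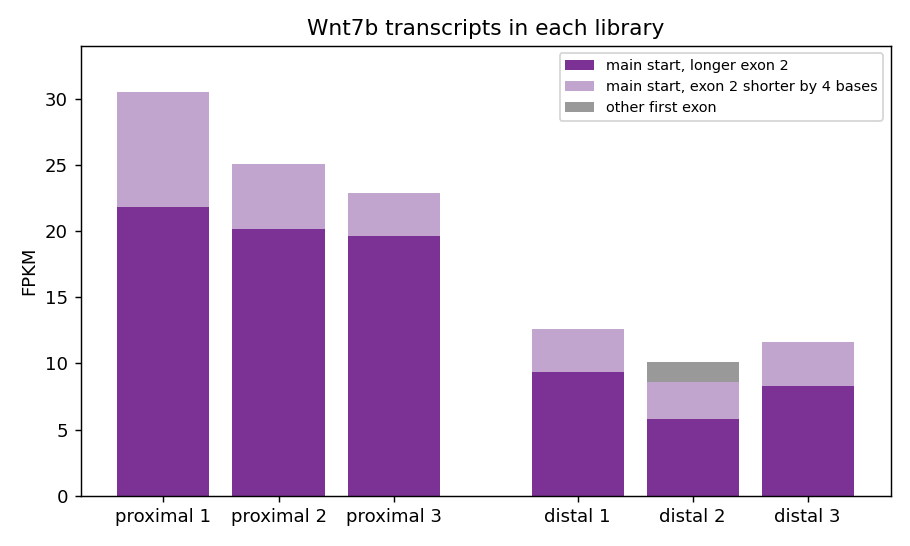
FPKM of Wnt7b transcripts in each library as stacked bars from 0, with proximal libraries on the left and distal libraries on the right. The form with the longer exon 2 makes up most of each bar, and a transcript with another first exon (1.54 FPKM) appears in distal replicate 2 alone.

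Wnt10a, a ligand with known roles in skin appendages and teeth, was the other ligand that rose. It had 3.34, 2.85 and 3.37 FPKM in proximal libraries, against 1.13, 1.73 and 1.32 FPKM in distal libraries. The groups did not overlap, nor did the deposited intervals of the single libraries, which reached down to 2.33 FPKM in proximal and up to 2.10 FPKM in distal libraries. The interval widths implied 117 to 167 fragments in proximal and 46 to 88 in distal libraries. Wnt10a averaged 3.19 ± 0.289 FPKM in the proximal group and 1.40 ± 0.307 FPKM in the distal group (SD, n = 3), a 2.28-fold ratio with a log2 fold change of 0.81 ± 0.15 (SE, adjusted p = 0.0180 in limma). The call was lost without proximal replicate 2 or 3 or distal replicate 3 (adjusted p up to 0.0751) and with no filter on low values (adjusted p = 0.0531). Wnt10a lies on chromosome 1 (74791516 to 74804179, plus strand).

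Wnt4, a ligand of the reproductive tract and kidney that can act through canonical and non-canonical branches, did not pass. It had 6.44, 6.45 and 5.51 FPKM in proximal libraries, against 5.28, 8.25 and 7.20 FPKM in distal libraries. The proximal values fell inside the distal range, and the log2 fold change was -0.13 ± 0.16 (SE, adjusted p = 0.664 in limma). Wnt9a, a ligand known from joint formation, had 1.47, 1.05 and 1.35 FPKM in proximal libraries, against 0.947, 1.31 and 1.04 FPKM in distal libraries. The groups overlapped at 64 to 113 implied fragments in a library, and the log2 fold change was 0.13 ± 0.15 (SE, adjusted p = 0.656 in limma). Wnt4 lies on chromosome 4 (137277489 to 137299726) and Wnt9a on chromosome 11 (59306928 to 59333552).

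Wnt5a and Wnt7a stayed below the expression filter. Wnt5a, the best studied non-canonical ligand and in the prostate known mainly from stroma, had 0.853, 1.02 and 0.816 FPKM in proximal libraries, against 0.479, 0.613 and 0.503 FPKM in distal libraries. The groups did not overlap, and the ratio of means was 1.68. With no filter its log2 fold change was 0.31 ± 0.09 (SE, adjusted p = 0.127 in limma), so it did not pass. Wnt7a, the closest relative of Wnt7b, was listed at 0.0130, 0 and 0 FPKM in proximal libraries, against 0.0146, 0.0114 and 0 FPKM in distal libraries. Each value above 0 corresponds to 1 fragment, so Wnt7a was not detectable beyond single fragments at this depth. Wnt5a lies on chromosome 14 (28504750 to 28527448) and Wnt7a on chromosome 6 (91363981 to 91411363).

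The make-up of the Wnt ligand RNA differed between the proximal and the distal libraries. All 19 mouse Wnt genes together had 69.2, 57.1 and 50.8 FPKM in proximal libraries, against 50.4, 45.7 and 45.6 FPKM in distal libraries. Wnt7b made up 44.1%, 43.9% and 45.1% of this sum in proximal libraries, against 25.0%, 22.2% and 25.5% in distal libraries. Wnt11, a mainly non-canonical ligand outside the set of 10, made up 33.0%, 28.7% and 25.6% in proximal libraries, against 53.1%, 44.0% and 42.2% in distal libraries. Wnt7b was thus the leading ligand in each proximal library and Wnt11 in each distal library. Wnt11 itself had 22.8, 16.4 and 13.0 FPKM in proximal libraries, against 26.8, 20.1 and 19.2 FPKM in distal libraries, and did not pass (log2 fold change -0.35 ± 0.21 SE, adjusted p = 0.354 in limma). Without Wnt7b the sum of the remaining 18 genes was 38.7, 32.0 and 27.9 FPKM in proximal libraries, against 37.8, 35.6 and 33.9 FPKM in distal libraries, and these ranges overlapped. These sums are given as a description, with no test.

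**Figure D3:**
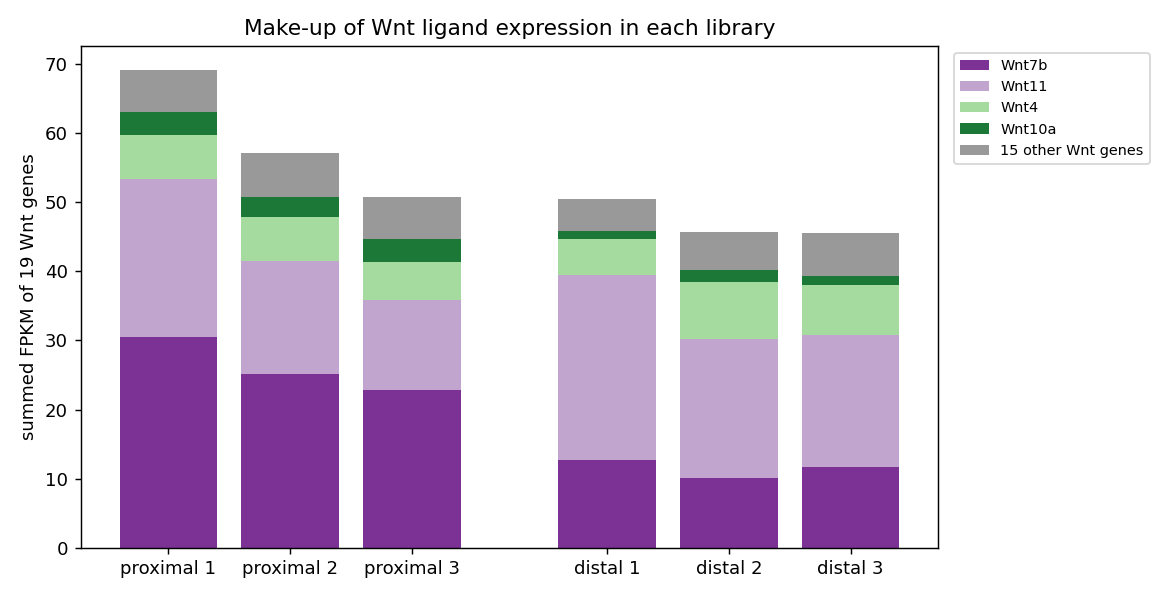
Summed FPKM of the 19 mouse Wnt genes in each library as stacked bars from 0, with proximal libraries on the left and distal libraries on the right. The Wnt7b segment is 22.9 to 30.5 FPKM in proximal and 10.1 to 12.6 FPKM in distal libraries, and Wnt11 is the tallest segment in each distal library.

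Of the secreted inhibitors, Sfrp1, which binds Wnt proteins and Frizzled receptors through a Frizzled-like domain, had the highest log2 fold change of the 10 genes on the tested scale. It had 3.62, 7.06 and 3.73 FPKM in proximal libraries, against 1.04, 0.981 and 0.916 FPKM in distal libraries. Proximal replicate 2 stood apart at nearly the sum of the other proximal libraries, and the lowest proximal library still exceeded every distal one. The means were 4.80 ± 1.96 FPKM in the proximal group and 0.979 ± 0.0622 FPKM in the distal group (SD, n = 3), a 4.90-fold ratio with a log2 fold change of 1.50 ± 0.22 (SE, adjusted p = 0.00773 in limma). Without proximal replicate 2 the log2 fold change was 1.24 (adjusted p = 0.0124). Between 392 and 683 fragments in proximal and 96 to 121 fragments in distal libraries were implied. Sfrp1 lies on chromosome 8 (23411502 to 23449632, plus strand).

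Sfrp5, a relative of Sfrp1 with the same Frizzled-like domain, had the highest ratio of means, 6.72-fold, which was 10.3-fold without distal replicate 2. It had 1.87, 3.74 and 2.00 FPKM in proximal libraries, against 0.306, 0.639 and 0.185 FPKM in distal libraries. Proximal replicate 2 was again the highest, and the groups did not overlap. Distal values rested on 8 to 32 implied fragments and proximal values on 80 to 148, and the deposited intervals ran from 1.45 FPKM upward in proximal libraries and up to 0.865 FPKM in distal libraries. The means were 2.53 ± 1.04 FPKM in the proximal group and 0.377 ± 0.235 FPKM in the distal group (SD, n = 3), and the log2 fold change was 1.33 ± 0.23 (SE, adjusted p = 0.0144 in limma) and came to 2.51 with a pseudocount of 0.1. The call was lost without distal replicate 3 (adjusted p = 0.0572). Without proximal replicate 2 the gene fell under the filter, and when kept in the test its log2 fold change was 1.10 (adjusted p = 0.0382).

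Dkk3, a divergent member of the Dickkopf family that is abundant in prostate epithelium and whose action on Wnt signaling is debated, was also higher. It had 10.2, 6.90 and 5.94 FPKM in proximal libraries, against 4.10, 3.83 and 3.06 FPKM in distal libraries. Proximal replicate 1 was the highest, and the deposited intervals did not overlap, with 5.37 FPKM as the lowest proximal bound and 4.61 FPKM as the highest distal bound. The means were 7.67 ± 2.21 FPKM in the proximal group and 3.66 ± 0.540 FPKM in the distal group (SD, n = 3), a 2.09-fold ratio with a log2 fold change of 0.87 ± 0.19 (SE, adjusted p = 0.0364 in limma). The call was lost without proximal replicate 2, distal replicate 2 or distal replicate 3 (adjusted p up to 0.121), with no filter (adjusted p = 0.0838), and with the leading transcript of each gene alone (adjusted p = 0.0518). Dkk3 lies on chromosome 7 (112116017 to 112159057, minus strand).

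Wif1, which binds Wnt proteins directly, was the most abundant of the 4 inhibitors and did not differ beyond the spread of the libraries. It had 11.6, 9.50 and 17.7 FPKM in proximal libraries, against 11.6, 11.2 and 16.6 FPKM in distal libraries. The library numbered 3 was the highest in both regions. The means were 13.0 ± 4.27 FPKM in the proximal group and 13.1 ± 3.03 FPKM in the distal group (SD, n = 3), and the log2 fold change was -0.04 ± 0.23 (SE, adjusted p = 0.935 in limma), whose sign changed when proximal replicate 1 or 2 or distal replicate 3 was left out. Wif1 thus made up a smaller share of the inhibitor RNA in proximal libraries. It was 42.6%, 34.9% and 60.3% of the summed FPKM of the 4 inhibitors in proximal libraries, against 68.0%, 67.3% and 80.0% in distal libraries. Sfrp1 and Sfrp5 together were 20.1%, 39.7% and 19.5% in proximal libraries, against 7.92%, 9.72% and 5.30% in distal libraries. The 4 inhibitors summed to 27.3, 27.2 and 29.4 FPKM in proximal libraries, against 17.0, 16.7 and 20.8 FPKM in distal libraries.

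The 250 bases before the start of Sfrp5 and Wif1 are shown to set the inhibitor with the highest ratio beside the one that did not pass (RefSeq, GRCm38.p6, which shares mm10 coordinates). Of the 10 genes, 5 had an entry in that promoter table, and Sfrp5 was the only one of these that rose. Capitals mark matches, on either strand, to the GC box GGGCGG and the TATA box TATAAA. The windows are chr19:42202253-42202502 on the minus strand for Sfrp5 and chr10:121033754-121034003 on the plus strand for Wif1.
Sfrp5: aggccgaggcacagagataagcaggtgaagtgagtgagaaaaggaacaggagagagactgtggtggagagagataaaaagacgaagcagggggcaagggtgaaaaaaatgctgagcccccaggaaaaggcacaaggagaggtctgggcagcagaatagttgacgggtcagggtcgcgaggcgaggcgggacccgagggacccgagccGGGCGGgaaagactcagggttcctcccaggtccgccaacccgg
Wif1: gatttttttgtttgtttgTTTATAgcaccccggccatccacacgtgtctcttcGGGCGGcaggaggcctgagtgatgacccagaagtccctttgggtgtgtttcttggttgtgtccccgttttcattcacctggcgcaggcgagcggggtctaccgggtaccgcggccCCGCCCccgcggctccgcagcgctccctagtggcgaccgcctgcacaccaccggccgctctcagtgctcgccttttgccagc
The Sfrp5 window held 1 GC box, 43 to 38 bases before the start, and the Wif1 window held 2 GC boxes, and 32.7% of all 32851 windows of this length hold at least 1. The Wif1 window also held the TATA box letters once, 232 to 227 bases before the start, as do 12.4% of windows in at least 1 place. Neither window held the TCF and LEF core CTTTGA (13.8% of windows) or the AP-1 site TGANTCA (6.75% of windows), also searched on both strands, and no match overlapped another. These are matches of letters in 1 window a gene and say nothing of binding.

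With 3 libraries against 3, an exact two-sided permutation test of a single gene cannot give a p below 0.10. It gave this smallest p of 0.10 for Wnt5a, Wnt7b, Wnt10a, Sfrp1, Sfrp5 and Dkk3, and 0.50 for Wnt4, 0.20 for Wnt9a, 0.70 for Wnt7a and 1 for Wif1. The order of mean levels in proximal cells was Wnt7b, Wif1, Dkk3, Wnt4, Sfrp1, Wnt10a, Sfrp5, Wnt9a, Wnt5a and Wnt7a. There the library ranges of the neighbours Wif1 and Dkk3, Dkk3 and Wnt4, Wnt4 and Sfrp1, and Wnt10a and Sfrp5 overlapped. In distal cells the order was Wif1, Wnt7b, Wnt4, Dkk3, Wnt10a, Wnt9a, Sfrp1, Wnt5a, Sfrp5 and Wnt7a. Wif1 and Wnt7b, Wnt10a and Wnt9a, Wnt9a and Sfrp1, and Wnt5a and Sfrp5 overlapped there. Sfrp1 thus ranked above Wnt10a and Wnt9a in proximal cells and below both in distal cells by mean FPKM.

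Proximal replicate 2 had the highest level of Sfrp1 and Sfrp5 and also of a fibroblast marker, the fibrillar collagen gene Col3a1. Col3a1 had 16.6, 17.8 and 14.5 FPKM in proximal libraries, against 7.51, 6.69 and 9.29 FPKM in distal libraries. It did not overlap between the regions, and it was picked for this comparison after its values were seen. Wnt7b and Dkk3, by contrast, were highest in proximal replicate 1. The part of other cell types in the levels of the 10 genes was not tested.

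The rest of the pathway was counted in fixed lists, without a test of any list as a whole. Of the other 13 Wnt ligands, 4 were tested and none passed in limma (1 at an unadjusted p under 0.05), with a median log2 fold change of -0.10. Over all genes tested the median was -0.01. The unadjusted pass was Wnt5b, which had 1.39, 1.30 and 1.65 FPKM in proximal libraries, against 0.860, 0.726 and 1.05 FPKM in distal libraries (limma, adjusted p = 0.159). Wnt2 and Wnt6, also tested, averaged 1.20 and 0.971 FPKM in proximal cells and 1.43 and 1.06 FPKM in distal cells.

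Of 16 other secreted modulators, 3 were tested, 1 was higher and none was lower. The higher gene was Sostdc1, which encodes an antagonist of BMP and Wnt signaling. It had 2.99, 4.77 and 3.03 FPKM in proximal libraries, against 0.252, 0.0657 and 0.279 FPKM in distal libraries. The groups did not overlap, proximal replicate 2 was the highest here too, and the log2 fold change was 1.92 ± 0.19 (SE, adjusted p = 0.00128 in limma). Sostdc1 averaged 0.199 FPKM in distal libraries and likewise reached the filter only through its proximal values. Notum, an enzyme that removes the lipid from Wnt proteins, had 2.63, 4.19 and 3.78 FPKM in proximal libraries, against 5.38, 5.33 and 6.09 FPKM in distal libraries, and did not pass (limma, adjusted p = 0.0821). Sfrp2, the third tested gene, had 2.55, 3.54 and 2.88 FPKM in proximal libraries, against 2.63, 2.26 and 2.43 FPKM in distal libraries, and did not pass (limma, adjusted p = 0.415). Dkk1, a classical inhibitor that blocks LRP5 and LRP6, was listed at 0 in all 6 libraries. Rspo3, of the R-spondins that enhance Wnt signaling, lay below the filter at 0.264, 0.0389 and 0.511 FPKM in proximal libraries, against 1.34, 0.787 and 1.53 FPKM in distal libraries (limma with no filter, adjusted p = 0.0809).

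The machinery that secretes Wnt proteins was expressed in both regions, at mean levels that ran in proximal cells between Porcn, the enzyme that attaches the lipid to Wnt proteins (2.87 FPKM, against 3.73 FPKM in distal cells), and Tmed2, a cargo receptor (184 FPKM, against 187 FPKM in distal cells). All 8 genes of that list were tested and none passed in limma, with 1 higher and 2 lower at an unadjusted p under 0.05. Wls, the carrier that brings Wnt proteins to the cell surface, averaged 110 ± 16.3 FPKM in the proximal group and 103 ± 5.46 FPKM in the distal group (SD, n = 3, adjusted p = 0.762 in limma). Of 25 listed receptors, co-receptors and genes that act on them, counted here as receptors, 18 were tested. Of these, 1 was lower and none was higher in limma (5 and 1 at an unadjusted p under 0.05). Rnf43, Znrf3 and Lgr5 are on this list and on the target gene list below. Rnf43 and Znrf3 were lower at an unadjusted p of 0.00449 and 0.0302 in limma, so they count in both lists. The lower gene was Fzd5, a Frizzled receptor, with 1.63, 1.42 and 1.34 FPKM in proximal libraries, against 2.77, 2.86 and 2.51 FPKM in distal libraries (log2 fold change -0.59 ± 0.13 SE, adjusted p = 0.0358 in limma). The Fzd5 call was lost in 7 of 17 alternatives. None of the 7 tested planar polarity genes passed in limma (1 lower at an unadjusted p under 0.05).

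Among target genes of the pathway, each call was in the lower direction. Of 14 listed, 10 were tested, 5 were lower (Lef1, Axin2, Nkd1, Apcdd1 and Tnfrsf19) and none was higher in limma, with a median log2 fold change of -0.84 (none higher and 9 lower at an unadjusted p under 0.05). The list was drawn up with an earlier result of this kind known, so its direction is not independent evidence. Axin2, a feedback inhibitor, had 1.63, 1.61 and 1.55 FPKM in proximal libraries, against 2.95, 5.84 and 5.55 FPKM in distal libraries. Lef1, a transcription factor partner of beta-catenin, had 1.54, 1.07 and 0.937 FPKM in proximal libraries, against 3.89, 6.18 and 3.90 FPKM in distal libraries. For both genes the groups did not overlap, and the Axin2 call was lost with no filter and without proximal replicate 2 or 3 or distal replicate 2 or 3 (limma, adjusted p up to 0.0969). Without distal replicate 2 or 3, or without proximal replicate 3, 1 target gene was called lower. Immediate early genes, which respond to tissue dissociation, had 3 of 15 tested genes called lower in proximal cells and none called higher. Their sum was 6925 to 8830 FPKM in proximal libraries, against 9609, 17201 and 17936 FPKM in distal libraries 1 to 3, so that distal replicate 1 was the lowest distal library for this list and for Axin2. Whether this bears on the target genes was not tested.

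**Figure D4:**
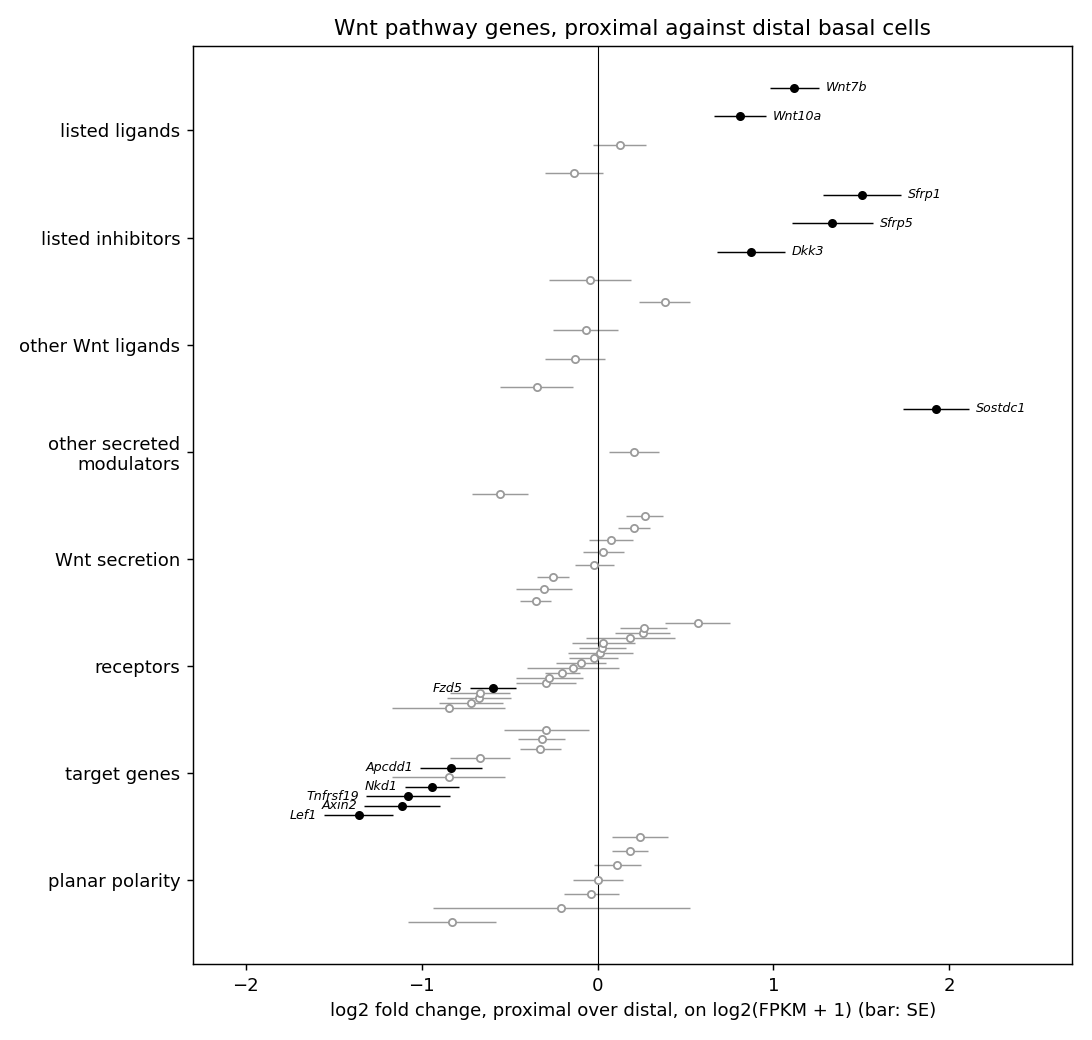
Log2 fold change, proximal over distal, on log2(FPKM + 1) for every tested gene of the fixed Wnt pathway lists, grouped by list, with SE bars. Filled, named points passed the test (limma, adjusted p under 0.05), and the called ligands and inhibitors lie to the right of 0 whereas the called target genes and Fzd5 lie to the left.

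The genes most alike in pattern were sought for the 3 most abundant of the 10, as the smallest root mean square difference of centred log2(FPKM + 1) over the 6 libraries among 6680 genes averaging 5 FPKM or more. For Wnt7b these were Mfge8 (0.07), Cldn3 (0.09) and Mcam (0.10), beside a median of 0.59 over all candidates. Mfge8, a secreted glycoprotein gene, had 239, 208 and 184 FPKM in proximal libraries, against 117, 95.3 and 98.0 FPKM in distal libraries. Cldn3 encodes a tight junction protein and Mcam a cell adhesion molecule. Cldn3 is also on the list of luminal markers and was higher in proximal libraries (adjusted p = 0.00252 in limma). It had 27.2, 25.8 and 24.6 FPKM there, against 13.4, 10.2 and 10.9 FPKM in distal libraries. The part of luminal cells in this likeness was not tested. For Wif1 they were Kdelr3 (0.11), Zfp7 (0.13) and Renbp (0.13), beside a median of 0.35. Kdelr3, which encodes a retrieval receptor for endoplasmic reticulum proteins, was also highest in the libraries numbered 3, with 12.7, 13.1 and 20.2 FPKM in proximal libraries and 14.5, 12.9 and 17.8 FPKM in distal libraries. For Wnt4 they were Rapgef6, Mif4gd and Atrn, each at 0.04, beside a median of 0.27. This likeness is a description over 6 libraries.

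**Figure D5:**
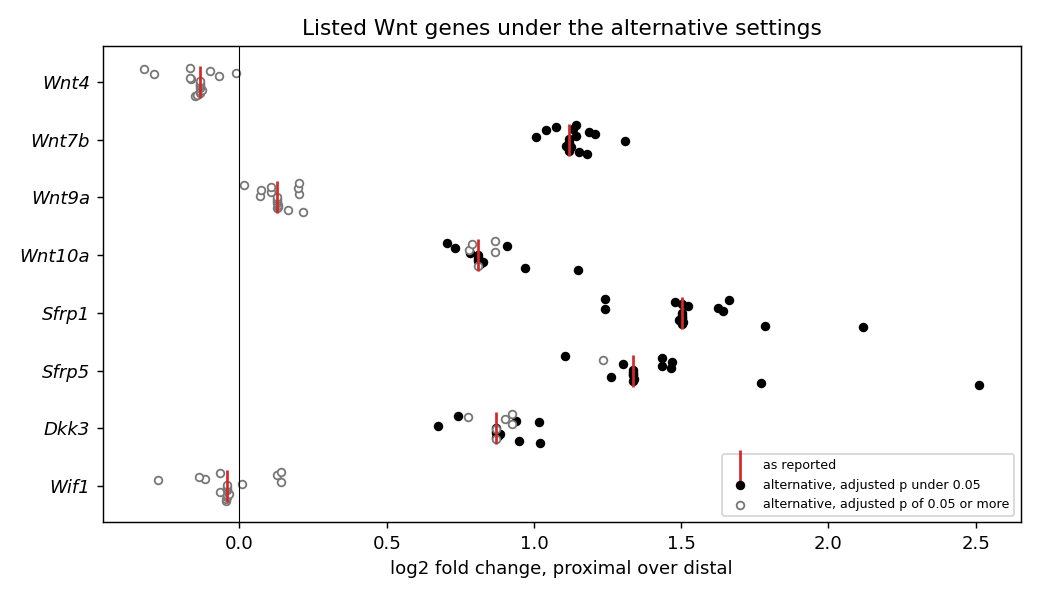
Log2 fold change, proximal over distal, of the 8 tested genes under the alternative settings (points, spread vertically for legibility) and as reported (red bars). Filled points have an adjusted p under 0.05. Each alternative for Wnt7b and Sfrp1 is filled, and Wif1 lies on both sides of 0.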

How the data were processed

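Total RNA of sorted mouse prostate basal cells was converted to cDNA with random and oligo(dT) primers for Illumina sequencing, as the labels' protocols state. Reads went through bcl2fastq 1.8.3, TopHat and Cufflinks on mm10, per the submitters' processing notes. The deposited FPKM of 63241 transcripts a library were used unscaled, and the annotation behind them is not stated. The coverage that is also deposited, a signal not scaled to depth, entered no result. Transcripts were assigned to GENCODE M21 genes (GRCm38, whose coordinates are those of mm10) by span and spliced length (overlap times length ratio of at least 0.5, or exon content), which placed 53323 transcripts with 93.9% of the FPKM. On 2000 held-out protein-coding reference transcripts, 90.8% were assigned, 99.8% of those to the right gene. FPKM were summed per gene.

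Genes averaging 1 FPKM or more entered limma 3.58.1 under R 4.3.3 as log2(FPKM + 1) (variance trend, no covariates, two-sided, Benjamini-Hochberg). In simulated data of 10255 genes, 72.5% of genes changed by 1 on the log2 scale were recovered, and 95.0% of those changed by 2. Of the simulated calls, 6.45% were false with a change of 1 and 4.04% with a change of 2. Depth was derived from interval widths of transcripts overlapping no other, and covers counting error only. Whether the kit marks strand is not stated. The 10 genes, the lists and the tests were chosen with earlier results of these data known. Named genes are the 10, up to 4 called and the 2 most abundant of each list, basal keratins, Trp63, and the 3 most alike in pattern. Wnt5b, Wnt6, Rspo3, Dkk1, Tnfrsf19, Porcn, Rnf43, Znrf3, Lgr5 and Col3a1 were named after their values were seen.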

Additional observations from a re-analysis of the deposited data

How the results depend on the processing

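Wnt7b and Sfrp1 kept their direction and call under every alternative run, Sfrp5 in 15 of 16, and Wnt10a and Dkk3 in 12 of 17 and 12 of 18. The 5 called genes of the 10 came to 3 with no filter on low values and to 2 with a filter at a mean of 5 FPKM, which only 4 of the 10 reach, and to between 2 and 5 on leaving out 1 library. Wif1, never called, changed sign on leaving out 1 library, with log2 fold changes from -0.28 to 0.14. Over all genes, 464 were called higher and 256 lower. Leaving out 1 library gave 202 to 533 higher and 46 to 622 lower, and leaving out both libraries numbered 1 gave 908 and 1385. The filter at 5 FPKM gave 273 higher and 168 lower, no filter 137 lower, and the leading transcript alone 169 lower. Target genes called lower were 5, with 2 under no filter and 2 under the filter at 5 FPKM, and 1 to 7 on leaving out 1 library. Receptors called lower were 1, with 0 under no filter, the filter at 5 FPKM and the leading transcript alone, 3 under median-ratio scaling, 4 under quantile normalization, 5 without both libraries numbered 1, and 0 to 5 on leaving out 1 library. Without both libraries numbered 1, 1 receptor was called higher, and 1 secretion gene and 1 polarity gene lower. With no filter 1 secretion gene was lower. Polarity genes called lower were 0 to 1 on leaving out 1 library. Other secreted modulators called higher were 2 with no filter and 0 with the filter at 5 FPKM. The causes were not tested. Leaving out proximal replicate 2 with the genes tested as in the full set, an alternative chosen after seeing the data, gave 211 higher and 52 lower, with 3 of the 10 genes higher, 0 receptors lower and 2 target genes lower.

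Replicate numbers are shared between the regions, but same-numbered libraries deviated together only in part (correlations over genes of 0.38, 0.04 and 0.29 for numbers 1 to 3). Proximal replicates 1 and 3 correlated best with the distal library of their own number, and proximal replicate 2 with distal replicate 3 (0.16). The numbers were not taken as pairs in the main test, so any effect shared by number stays in its error. With the replicate block, 880 genes were higher and 732 lower, all 5 called genes of the 10 were called (5), and 3 receptors, 2 secretion genes, 1 polarity gene and 1 other modulator (Notum) were lower and 1 receptor higher. Few implied fragments underlay Sfrp5 in distal libraries (8 to 32) and Wnt7a in all 6 (0 to 1).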
